A study of Mus musculus with 16 samples.

Results

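The comparison described here is that of Mettl3 cKO with Control livers at P1, that is 1 day after birth, the earliest of the 4 ages collected (P1, W1, W2 and W4, the last 3 in weeks). It rests on 4 of the 16 liver libraries, 2 for each genotype, and on 12782 of the 53379 genes in the table, namely the autosomal genes that reached 1 FPKM (fragments counted on a gene, divided by transcript length and by library size) in at least 2 of these 4 libraries. Control mice carried the wild-type genotype in the labels, and Mettl3 cKO mice carried floxed Mettl3 alleles together with Cre under the albumin promoter (Alb-Cre), both on a C57BL/6J background. Controls and knockouts were littermates, Cre was heterozygous, and the study's methods state 2 individuals for an age. Cre of this kind acts in hepatocytes and cells of the same origin, and is not known for acting in the blood-forming and endothelial cells that a whole liver also holds. The libraries of W1, W2 and W4 entered the fit to estimate the spread between replicates and were used to follow the genes called at P1 in other livers.

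The enzyme METTL3 methylates adenosine in nascent mRNA, and the resulting N6-methyladenosine (m6A) is recognised by reader proteins that act on splicing, export, decay and translation. At birth the mouse liver is still a site of blood formation, while its hepatocytes switch on the enzymes of nitrogen disposal, gluconeogenesis and detoxification that the placenta had made unnecessary. These enzymes come to be divided along the lobule, with urea synthesis and amino acid breakdown in periportal hepatocytes and cytochromes P450 and glutamine synthesis in pericentral ones.

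Hepatocyte and blood-forming markers were both abundant in the 4 libraries. The 11 hepatocyte markers summed to 81295 and 88598 FPKM in the Controls and to 61961 and 69538 FPKM in Mettl3 cKO libraries, or 18.3 and 18.9% against 16.2 and 16.5% of the FPKM of nuclear genes. The 17 erythroid markers in the table summed to 24079 and 25815 against 19524 and 21398 FPKM, which is 5.43 and 5.51% against 5.12 and 5.09% of nuclear FPKM. Both sums were therefore lower in both Mettl3 cKO libraries, while mitochondrially encoded genes took 22.6 and 14.8% of all FPKM in Control and 34 and 29.9% in Mettl3 cKO. Their part in the gene results was not tested. In whole tissue, fewer cells of a type and less RNA per cell cannot be told apart. The sums of neutrophil markers (2860 and 3024 against 2572 and 2808 FPKM), stellate markers (165 and 185 against 154 and 144 FPKM) and mesothelial markers (136 and 139 against 79.5 and 104 FPKM) were likewise lower in both Mettl3 cKO libraries. The intestinal sum was higher (94.1 and 102 against 138 and 112 FPKM). Of its 3 tested members, however, 1 lay above and 1 below both Controls, with a median log2 fold change of -0.12. As shares of nuclear FPKM, neutrophil markers were higher in both Mettl3 cKO libraries (0.644 and 0.645% against 0.674 and 0.668%), stellate markers overlapped (0.0371 and 0.0395% against 0.0404 and 0.0342%), and the mesothelial and intestinal sums kept their direction. Macrophage, megakaryocyte, lymphocyte, endothelial and cholangiocyte sums overlapped between the groups. The defining markers were present throughout, with Alb at 28890 and 30008 against 18582 and 24871 FPKM, Hba-a1 at 11174 and 8488 against 9792 and 8660 FPKM, Adgre1 at 1.95 and 2.72 against 1.83 and 2.57 FPKM, Pecam1 at 7.05 and 9.69 against 8.30 and 7.29 FPKM and Krt19 at 3.11 and 3.26 against 2.74 and 1.75 FPKM. Pancreatic markers summed to 5.3 to 7.4 FPKM with 6 of 15 at 0 in all 4 libraries, including Ptf1a and Prss2, and the intestinal factors Cdx1 and Cdx2 were at 0.

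The 4 libraries were not interchangeable. Spearman's rho across genes was 0.975 between the Control libraries, 0.965 between the Mettl3 cKO libraries, 0.97 and 0.965 between Mettl3 cKO replicate 2 and the Controls, and 0.948 and 0.942 between Mettl3 cKO replicate 1 and the Controls, so that replicate 1 of Mettl3 cKO stood furthest apart. Control replicate 1 was male by the Y-linked gene Eif2s3y (25.4 FPKM) and the other 3 libraries were female by Xist (60.5, 79.4 and 59.8 FPKM), so that leaving out Control replicate 1 gives the comparison within females. Low FPKM values stepped in units that correspond to between 13200000 and 15300000 fragments per library, an estimate that made 75 to 75.9% of the lowest 25% of values whole numbers of fragments within 0.05. Mettl3 itself stood at 7.79 and 8.12 FPKM in Control and at 11.3 and 9.06 FPKM in Mettl3 cKO, above both Controls (log2 fold change 0.32, adjusted p = 0.47 by limma). Only part of the gene is floxed and the value of a gene counts all of its exons, so the labels cannot be checked in this way, and all directions are those of the libraries as labelled.

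At P1, 39 genes were called by limma (adjusted p, by Benjamini and Hochberg, under 0.05), which is 0.305% of the genes tested. Of these, 18 (0.141%) were higher and 21 (0.164%) were lower in Mettl3 cKO, and the size of the log2 fold changes, computed on FPKM plus 1, ran from 0.70 to 3.57. Both Mettl3 cKO libraries lay outside the range of both Controls for all 39. Of all genes tested, 17.9% lay above both Controls in this way and 28.4% below. The calls rest on these same libraries, which favours such separation, so it lends them no further support. An unadjusted p under 0.05 was found for 1513 genes, which is 11.8% of those tested. The median log2 fold change of all genes tested was -0.03. On the scale of median-of-ratios factors, which equalise the typical gene between libraries, 41 genes were called, 25 higher and 16 lower, and 32 genes were called on both scales. Of the 39, 13 were predicted genes or pseudogenes.

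**Figure D1:**
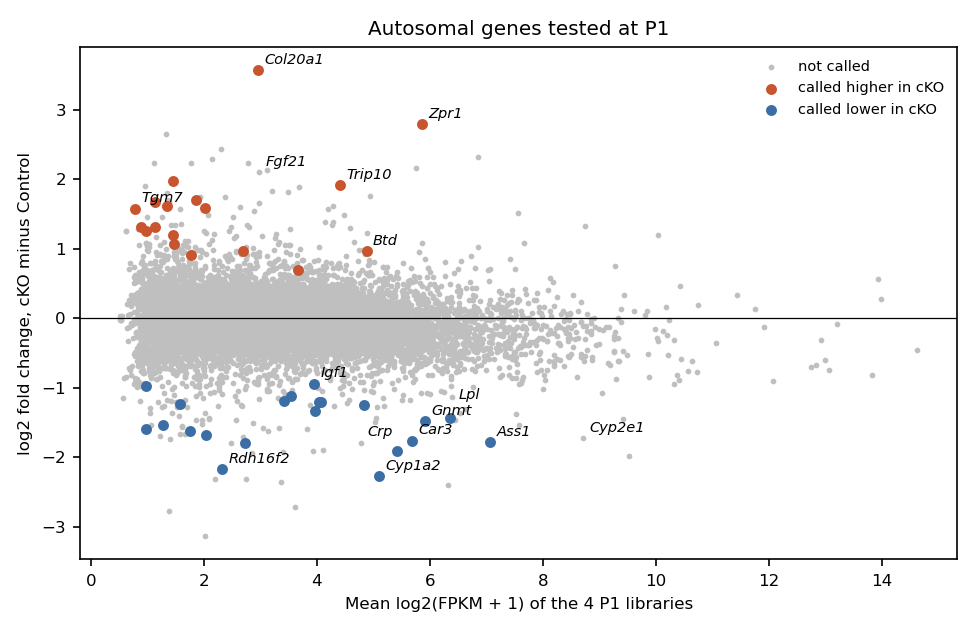
Each point is 1 of the 12782 autosomal genes tested at P1, with the mean log2(FPKM + 1) of the 4 libraries on the x axis and the log2 fold change of Mettl3 cKO minus Control on the y axis, and the 18 genes called higher and 21 called lower are coloured. Called genes reach from Col20a1 at 3.57 to Cyp1a2 at -2.27, while several uncalled genes such as Fgf21 show changes of similar size.

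The genes that rose were a mixed group, of which only Col20a1 belonged to any of the 33 pathway lists examined. Col20a1, a collagen chain gene on mm10 chromosome 2 (180986535 to 181018363, plus strand), read 1.14 and 1.39 FPKM in Control against 36.9 and 17.9 FPKM in Mettl3 cKO. Its log2 fold change was 3.57 (SE 0.34, adjusted p = 0.00154), and it was the only one of the 39 called whichever of the 4 libraries was left out (3.07 to 4.07, with 0.0141 the highest adjusted p). Zpr1 encodes a zinc finger protein that binds a translation elongation factor, and it lies on chromosome 9 (46273064 to 46282643, plus strand). It read 17.0 and 25.8 FPKM in Control against 193 and 119 FPKM in Mettl3 cKO (log2 fold change 2.79, SE 0.34, adjusted p = 0.00592).

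The gene next to Zpr1 stood out in the same direction without passing the test. Bud13, a splicing factor gene that begins 365 bp away, read 2.69 and 4.07 FPKM in Control against 14.2 and 9.58 FPKM in Mettl3 cKO (log2 fold change 1.55, SE 0.34, adjusted p = 0.0858). It was picked out after its values were seen. Other genes within 50 kb varied, with 0.41 for Apoa5, 1.33 for Apoa4, -0.49 for Apoc3 and 0.28 for Apoa1 on the log2 scale, none of them called. Across the 8 most raised genes of at least 5 FPKM, 0 of 30 tested neighbours within 50 kb were called by limma (8 had an unadjusted p under 0.05, against 11.8% of all genes), and their median log2 fold change was 0.08, with Bud13 the highest.

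Trip10, a membrane-bending adaptor that binds Cdc42, read 7.83 and 12.5 FPKM in Control against 49.6 and 32.9 FPKM in Mettl3 cKO (log2 fold change 1.92, adjusted p = 0.00858). Bcas1, best known from myelin-forming cells, read 0.843 and 1.19 against 8.24 and 3.66 FPKM. Kcnk16, a potassium channel gene of pancreatic islets, read 1.21 and 1.47 against 5.41 and 6.74 FPKM. Like Col20a1, both were thus near 1 FPKM in Control liver, whereas Zpr1 and Trip10 were expressed in both genotypes.

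Btd, which encodes the biotin-recycling enzyme biotinidase, read 21.7 and 18.5 FPKM in Control against 39.1 and 41.3 FPKM in Mettl3 cKO, with little spread (20.1 ± 2.3 against 40.2 ± 1.52 FPKM, SD, n = 2 each). Gpatch3, a G-patch protein gene, read 4.44 and 2.88 against 8.31 and 7.76 FPKM. Phactr4, a regulator of protein phosphatase and actin, read 8.87 and 9.11 against 14.3 and 16.1 FPKM, the smallest change called (0.70, SE 0.13, adjusted p = 0.0461). The other 10 genes called higher did not reach a mean of 5 FPKM in either group. Among them, chosen after their values were seen, Tgm7 of the transglutaminase family was at 0 in both Controls and at 3.21 and 1.12 FPKM in Mettl3 cKO. Fbp2, the muscle form of fructose bisphosphatase, read 0.278 and 0.528 against 2.88 and 2.09 FPKM, and Necab2, a neuronal calcium-binding protein gene, 0.267 and 0.197 against 3.53 and 2.43 FPKM.

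The genes that fell included hepatocyte enzymes and secreted products, described first, beside 7 pseudogenes and noncoding RNAs and several little studied genes. Cyp1a2, the pericentral cytochrome P450 that oxidises caffeine and arylamines, read 67.1 and 82.7 FPKM in Control against 11.4 and 18.7 FPKM in Mettl3 cKO (74.9 ± 11.1 against 15.0 ± 5.16, log2 fold change -2.27, SE 0.29, adjusted p = 0.00592). Ass1, which joins citrulline and aspartate in the urea cycle, read 274 and 224 against 57.7 and 87.5 FPKM (-1.78, SE 0.26, adjusted p = 0.0117). Gnmt, which consumes S-adenosylmethionine to methylate glycine and so sets the methyl donor level of the liver, read 87.4 and 113 against 33.5 and 36.7 FPKM (-1.48, SE 0.27, adjusted p = 0.0419). For these enzymes the higher Mettl3 cKO library remained well under the lower Control.

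Lipid, steroid and carbon dioxide metabolism each had a member among the lowest. Lpl, the lipase that releases fatty acids from circulating triglyceride and that newborn liver makes itself, read 125 and 144 FPKM in Control against 43.5 and 55.3 FPKM in Mettl3 cKO (-1.43, SE 0.18, adjusted p = 0.00621). Car3, a cytosolic carbonic anhydrase gene, read 106 and 82.0 against 27.9 and 25.8 FPKM. Rdh16f2, a gene of the retinol dehydrogenase family, read 7.33 and 12.6 against 1.65 and 1.12 FPKM. Rdh16f2 was thus close to the filter of 1 FPKM in Mettl3 cKO but not in Control.

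Hsd3b3, a hydroxysteroid dehydrogenase gene, read 20.6 and 27.2 FPKM in Control against 7.88 and 9.90 FPKM in Mettl3 cKO, and Amy1, an amylase gene of salivary gland and liver, 46.0 and 39.6 against 14.1 and 21.4 FPKM. Acnat2, which conjugates fatty acyl groups to amino acids, read 15.9 and 16.4 against 5.86 and 8.07 FPKM. Igf1, the circulating growth factor made by hepatocytes under growth hormone, read 20.3 and 20.7 against 9.14 and 11.4 FPKM (-0.94, SE 0.17, adjusted p = 0.0419), but was not called on the median-of-ratios scale (-0.90, adjusted p = 0.0629). Among the less well studied genes, Smim10l1 read 21.2 and 26.7 against 11.9 and 8.08 FPKM, Pcp4l1 13.6 and 17.0 against 7.42 and 4.97 FPKM, and BC025446 22.5 and 26.5 against 9.58 and 10.6 FPKM. Pcp4l1 also missed the threshold after rescaling (-1.14, adjusted p = 0.0516).

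**Figure D2:**
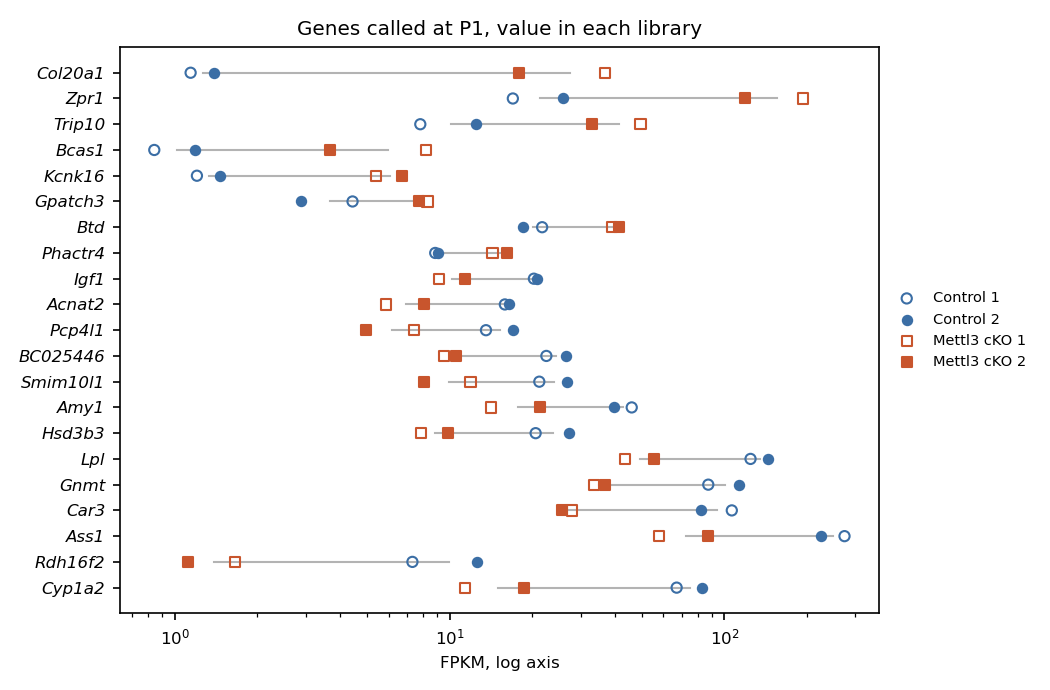
FPKM (log x axis) of each named gene called at P1 in each of the 4 libraries, with circles for Control, squares for Mettl3 cKO, open symbols for replicate 1, filled symbols for replicate 2, and grey lines joining the 2 group means. Circles and squares do not overlap for any gene, which was a condition of being named for all but Igf1. Lpl, for example, has 125 and 144 against 43.5 and 55.3 FPKM.

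Fewer genes were called when 1 library was left out, which leaves 1 library in its group. The log2 fold changes stayed of similar size in some genes (Cyp1a2 -2.61 to -1.94, Lpl -1.60 to -1.26, Zpr1 2.45 to 3.14, Ass1 -2.08 to -1.49). They moved more in others (Bcas1 1.22 to 2.20, Tgm7 1.08 to 2.07, Gpatch3 0.73 to 1.22). With Mettl3 cKO replicate 1 left out, 3 genes were called, all among the 39 (Col20a1, Smim10l1 and the pseudogene Gm7125, chosen here by that count). With Control replicate 1 left out, the comparison within females, 12 genes were called, of which 8 were among the 39, including Cyp1a2 (-2.42), Lpl (-1.54) and Rdh16f2. With Control replicate 2 left out 12 genes were called and 9 were shared, and without Mettl3 cKO replicate 2 there were 24 with 16 shared. With the 4 libraries of P1 fitted alone, where 2 residual degrees of freedom remain, 1 gene was called, the very short T cell receptor segment Trbd1 (6.28 and 5.41 FPKM in Control, 0 in both Mettl3 cKO libraries).

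Some called loci share sequence with others, so that reads could be divided between them by the counting. The pseudogene Gm5424 on chromosome 10 (62071123 to 62072362) aligned over its whole length to the Ass1 transcript of chromosome 2 (31470207 to 31520672) with 99.5% identity in GENCODE M21, differing at 6 of 1240 bases. Gm5424 read 84.5 and 79.6 FPKM in Control against 16.9 and 26.3 FPKM in Mettl3 cKO (-1.91, SE 0.27, adjusted p = 0.0101), and so moved side by side with Ass1. The 60 bases with most differences are shown because they tell the 2 loci apart, with differing bases in capitals.
Ass1: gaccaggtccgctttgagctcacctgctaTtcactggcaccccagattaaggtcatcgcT
Gm5424: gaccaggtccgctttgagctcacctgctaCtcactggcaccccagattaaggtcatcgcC
The sources used here do not say how reads common to both loci were assigned, so the calls of Ass1 and Gm5424 cannot be told apart.

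Some other called pseudogenes and noncoding RNAs share sequence with genes that were not called. Gm15428 aligned to Pclaf, a PCNA-binding replication factor gene, at 99.0% identity, and Pclaf read 15.6 and 17.3 FPKM in Control against 8.79 and 14.7 FPKM in Mettl3 cKO (-0.49, adjusted p = 0.485). Gm6195 aligned at 94.0% to Rpa3, a subunit of the single-strand DNA-binding protein of replication, whose values overlapped between groups (30.3 and 29.5 against 20.9 and 36.7 FPKM). The antisense RNA Gm42413 lies almost entirely (98.2% of its exon bases) across exons of Qdpr on the other strand, and Qdpr, which regenerates tetrahydrobiopterin, read 65.7 and 70.4 against 34.5 and 47.2 FPKM (-0.74, adjusted p = 0.312). Of the protein-coding calls, Rdh16f2 is 92.2% identical to Rdh19 over 79.3% of its transcript, Acnat2 94.1% to Acnat1 over 85.6% and Amy1 89.4% to Amy2a2 over 79.5%. Amy1 also shares 1128 exon bases (32.7% of its exon bases) with Rnpc3 on the same strand. Acnat1 itself was at 4.48 and 6.20 against 3.81 and 4.95 FPKM, with overlapping groups.

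Beyond single calls, the gene lists were compared with the whole set of tested genes. Both Mettl3 cKO libraries lay below both Controls for 28.4% of all genes and above them for 17.9%. List counts and medians are given beside these shares as a description, without a test of the list. The lists share members, so their counts are not independent. Ass1 and Cps1, for example, are in the urea cycle and periportal lists, and Sds and Gls2 in the amino acid and periportal lists. Likewise Cyp1a2 and Cyp2e1 are in the cytochrome P450 and pericentral lists.

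Urea cycle genes were lower as a group, with a median log2 fold change of -0.74 over 7 tested members, 6 of them below both Controls, although Ass1 was the only member called. Cps1, the mitochondrial entry enzyme of the cycle, read 158 and 149 FPKM in Control against 48.5 and 77.2 FPKM in Mettl3 cKO (-1.31, SE 0.33, adjusted p = 0.143). Slc25a15, the ornithine carrier, read 27.1 and 30.5 against 13.2 and 17.2 FPKM, and Asl, which splits argininosuccinate, 79.2 and 106 against 49.9 and 59.6 FPKM. Arg1, which releases urea, read 413 and 328 against 192 and 283 FPKM. In each of these, replicate 1 of Mettl3 cKO was the lowest library.

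Amino acid catabolism showed the same lean, with 27 of 35 tested members below both Controls and 2 above, a median of -0.47 and 0 calls (18 members had an unadjusted p under 0.05, 17 of them lower, against 11.8% of all genes). Sds, serine dehydratase, read 28.4 and 28.9 FPKM in Control against 4.65 and 9.93 FPKM in Mettl3 cKO (-1.91, SE 0.43, adjusted p = 0.0945). Sardh, which demethylates sarcosine, read 61.0 and 76.2 against 38.0 and 44.4 FPKM (-0.72, adjusted p = 0.0955). Gls2, the liver glutaminase, and Aass, the first enzyme of lysine breakdown, were at -1.03 and -1.05.

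In methionine and sulfur metabolism 10 of 13 members were below both Controls, with a median of -0.59, and Gnmt was the 1 member called. Cdo1, which oxidises cysteine, read 226 and 239 FPKM in Control against 142 and 151 FPKM in Mettl3 cKO (-0.66, adjusted p = 0.143). Cbs, which makes cystathionine, read 70.1 and 69.0 against 42.2 and 45.5 FPKM. Pemt, which methylates phosphatidylethanolamine, read 210 and 282 against 127 and 159 FPKM. Like Gnmt, Pemt uses S-adenosylmethionine, and its groups did not overlap either.

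Both zones of the lobule had members below both Controls. Periportal genes had a median of -0.68 (18 tested, 14 below both Controls, 1 called, Ass1) and pericentral genes one of -0.25 (16 tested, 8 below both Controls, 1 called, Cyp1a2). The difference between the zones was not tested. Cyp2f2, a periportal cytochrome P450, read 30.3 and 34.7 FPKM in Control against 6.20 and 10.3 FPKM in Mettl3 cKO (-1.89, adjusted p = 0.0952). Cyp2e1, a pericentral one that oxidises ethanol, read 716 and 799 against 189 and 277 FPKM (-1.72, adjusted p = 0.153). Lect2, a secreted pericentral protein, read 299 and 288 against 92.5 and 137 FPKM (-1.37, adjusted p = 0.0551), and Gulo and Oat, of ascorbate and ornithine metabolism, were at -1.08 and -1.25 (adjusted p = 0.0797 each).

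Over the wider list of cytochromes P450 and xenobiotic enzymes, 22 of 33 members were below both Controls and 4 above, with a median of -0.49 and 1 call (Cyp1a2). Cyp2a12 read 54.1 and 52.8 against 14.5 and 23.2 FPKM, and the sulfotransferase gene Sult1d1 34.2 and 24.6 against 11.98 and 16.3 FPKM. Collagen and matrix genes had 18 of 24 members below both Controls and a median of -0.33, apart from Col20a1, the 1 call and the only member above both Controls. The stellate marker sum given above was lower in both Mettl3 cKO libraries as well, though not as a share of nuclear FPKM, where the groups overlapped, and its part in this list was not tested. Sparc, a matrix glycoprotein gene, read 72.9 and 98.4 FPKM in Control against 48.0 and 57.4 FPKM in Mettl3 cKO.

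**Figure D3:**
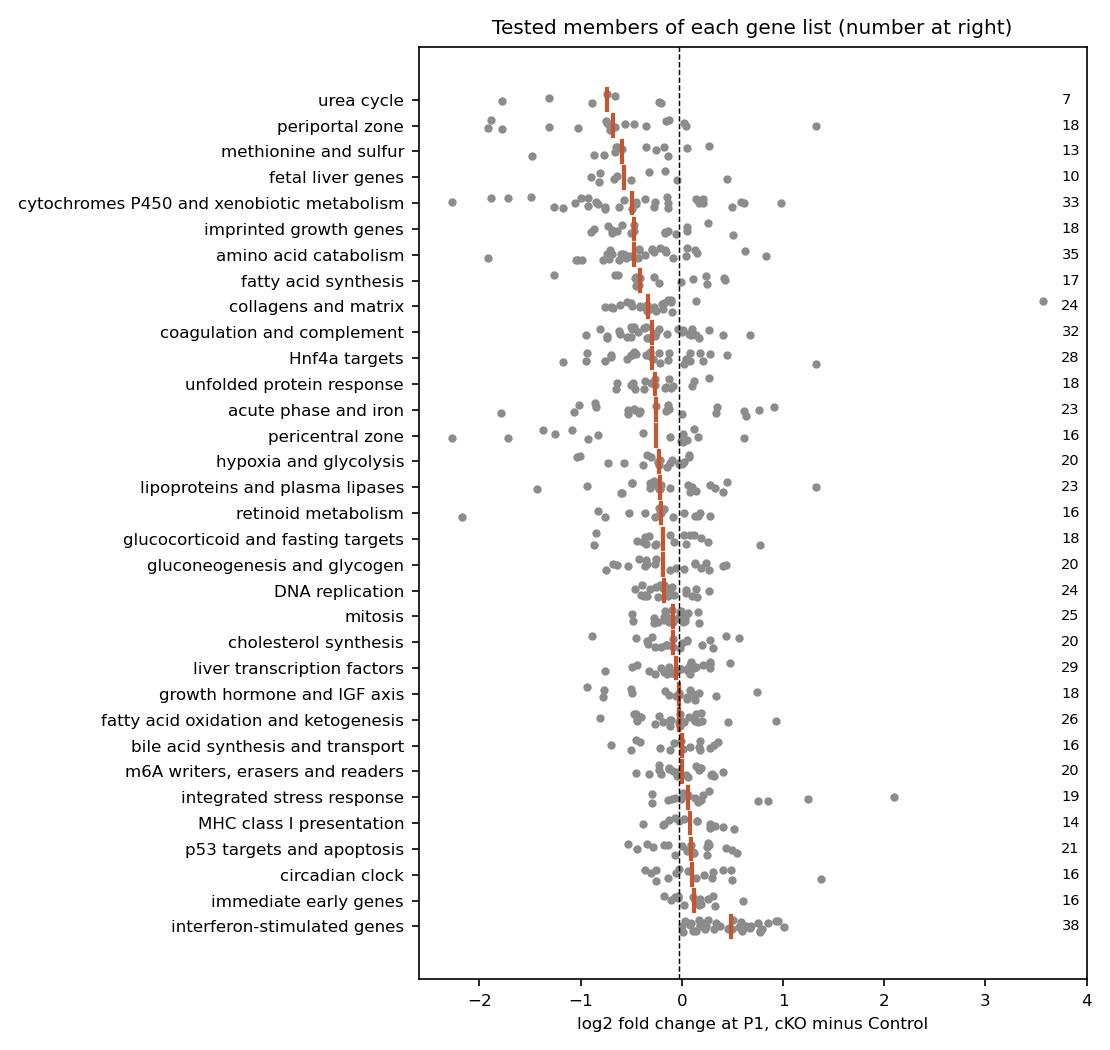
Log2 fold change at P1 of Mettl3 cKO minus Control (x axis) for each tested member (grey points) of the 33 gene lists (y axis), with the list median as an orange bar, the number of tested members at the right and the median of all genes as a dashed line at -0.03. The lowest median is that of the urea cycle at -0.74 and the highest that of interferon-stimulated genes at 0.49.

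Growth and fetal lists leaned lower too. Imprinted growth genes, most of which are silenced in liver after birth, had a median of -0.47 with 13 of 18 below both Controls and 0 called. Of them 10 had an unadjusted p under 0.05, 9 of these lower, against 11.8% of all genes. Cdkn1c, a growth-restraining cyclin-dependent kinase inhibitor, read 73.2 and 69.9 FPKM in Control against 32.7 and 45.6 FPKM in Mettl3 cKO (-0.87, adjusted p = 0.179), and Peg3 137 and 114 against 72.7 and 76.8 FPKM. The fetal liver list had a median of -0.57 with 8 of 10 below both Controls, and its abundant noncoding RNA H19 read 5266 and 6464 against 2587 and 3779 FPKM (-0.90, adjusted p = 0.403). In the growth hormone axis, Ghr, the receptor, read 26.9 and 26.8 against 15.7 and 14.6 FPKM (-0.78, adjusted p = 0.153), while the list as a whole had a median of -0.03, the same as all genes.

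Several other lists had medians close to that of all genes, namely -0.03 for fatty acid oxidation and ketogenesis, -0.09 for cholesterol synthesis, 0.00 for bile acid synthesis and transport and -0.06 for liver transcription factors. Each had 0 calls by limma, and 3 of 26, 2 of 20, 2 of 16 and 2 of 29 members had an unadjusted p under 0.05, against 11.8% of all genes. Hnf4a, the central hepatocyte nuclear receptor, read 64.0 and 54.5 FPKM in Control against 50.3 and 56.4 FPKM in Mettl3 cKO, with overlapping groups. The 28 tested members of the list of its targets stood lower than all genes, with a median of -0.29, 15 of them below both Controls and 0 called by limma (8 at an unadjusted p under 0.05, 7 of them lower). The 11 hepatocyte markers had a median of -0.31, with 6 below both Controls, so the targets stood no lower than these markers. A difference between the targets and other hepatocyte genes was not tested. The 20 tested m6A writers, erasers and readers had 0 calls by limma and 0 members at an unadjusted p under 0.05, with 5 above and 6 below both Controls.

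Defence and secretion lists were divided. Coagulation and complement genes had a median of -0.29 (18 of 32 below both Controls, 0 called, 8 at an unadjusted p under 0.05, 7 of them lower). Acute phase and iron genes had one of -0.25 (12 of 23 below, 0 called, 5 at an unadjusted p under 0.05, 3 of them lower). Such a p was found for 11.8% of all genes, and the hepatocyte markers had a median of -0.31. Crp, an acute phase plasma protein, read 44.7 and 56.7 FPKM in Control against 12.03 and 15.8 FPKM in Mettl3 cKO (-1.79, SE 0.41, adjusted p = 0.0964). The unfolded protein response, which tracks the load of secretion, had 10 of 18 members below both Controls and 0 above, with a median of -0.26, and its glycoprotein chaperone gene Canx read 37.1 and 47.6 against 24.2 and 28.8 FPKM.

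The interferon-stimulated genes had the highest median of the lists at 0.49, with 11 of 38 above both Controls, 0 below and 0 called by limma (7 at an unadjusted p under 0.05, against 11.8% of all genes). This value came with 1 Control library, which was also the only male one, so that library and sex cannot be told apart. Control replicate 1 was the lowest of the 4 libraries in 37 of the 38 genes, and the list median relative to the Control mean was -0.49 in Control replicate 1, 0.49 in Control replicate 2, 0.51 in Mettl3 cKO replicate 1 and 0.34 in Mettl3 cKO replicate 2. Without Control replicate 1 the median log2 fold change was 0.04. For instance Rtp4, an interferon-induced chaperone gene, read 6.41 and 15.8 FPKM in Control against 19.1 and 17.1 FPKM in Mettl3 cKO. At W1, where both Controls were male and both Mettl3 cKO livers female, the list median was 0.97 (0.88 after rescaling). There 9 of the 38 were called higher, against 3.4% of all genes. At W2 and W4 the list median was 0.11 and 0.37 (-0.11 and -0.20 after rescaling).

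**Figure D4:**
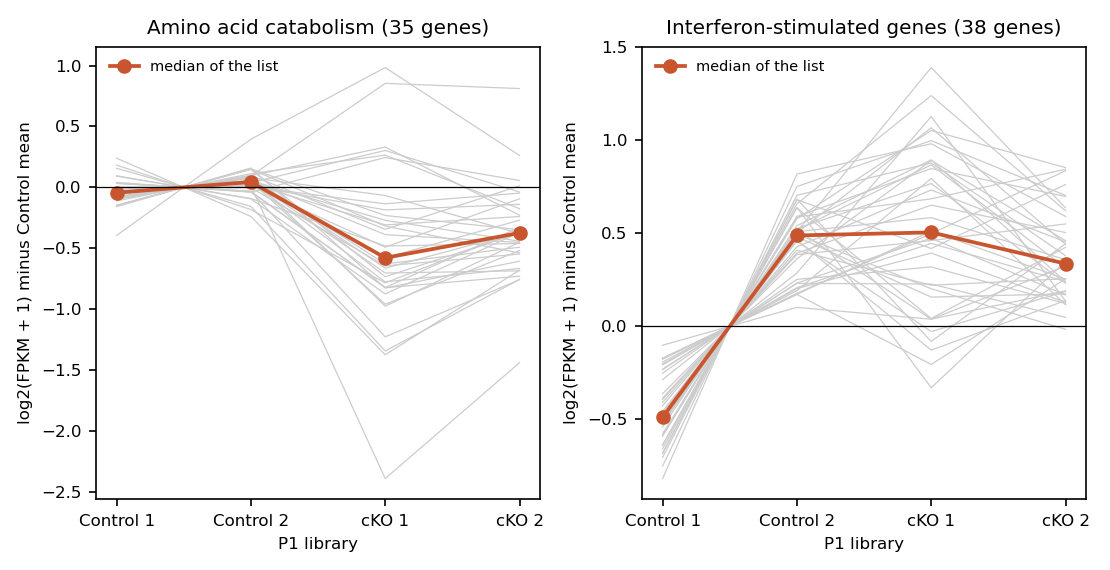
Log2(FPKM + 1) minus the Control mean (y axis) in each P1 library (x axis) for the tested members (grey lines) of amino acid catabolism (35 genes) and interferon-stimulated genes (38 genes), with the list median in orange. Amino acid genes drop in both Mettl3 cKO libraries (medians -0.58 and -0.37), whereas interferon-stimulated genes are set apart by Control replicate 1 (-0.49).

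Some values were those of Mettl3 cKO replicate 1. The integrated stress response list had a median of 0.06, with or without that library, which was the highest in 10 of its 19 members. Of its members with the smallest p, Fgf21, a hormone induced by the integrated stress response and by fasting, read 4.91 and 1.44 FPKM in Control against 54.6 and 3.79 FPKM in Mettl3 cKO, and Trib3, a pseudokinase gene of the same response, 2.16 and 1.12 against 10.8 and 2.23 FPKM (log2 fold changes 2.1 and 1.25, adjusted p = 0.371 and 0.35). Of 25 mitosis genes, 24 were lowest in that library, with a list median of -0.28 relative to the Control mean there and 0.09 in replicate 2, and 18 of 24 DNA replication genes were lowest there as well. For amino acid catabolism, in contrast, both Mettl3 cKO libraries were below the Control mean (medians -0.58 and -0.37).

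Over the 4 fits that left out a P1 library, list medians ranged as follows for the urea cycle (-0.95 to -0.61), amino acid catabolism (-0.58 to -0.37), methionine and sulfur (-0.71 to -0.37), cytochromes P450 and xenobiotic metabolism (-0.54 to -0.39), the periportal zone (-0.86 to -0.46), imprinted growth genes (-0.50 to -0.31) and collagens and matrix (-0.42 to -0.21). Their direction could not have changed in these fits, since most tested members of each list lay below both Controls. On the scale of nuclear FPKM, where the median of all genes moved to 0.12, these lists stood at -0.55, -0.29, -0.40, -0.35, -0.50, -0.30 and -0.15 in the same order, all under the median of all genes. That scale takes out the mitochondrial share given above.

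The 39 genes were then followed in the livers of W1, W2 and W4, which share no library with P1. Since all ages enter 1 fit, each gene has 1 estimate of spread for all ages, so a gene of small spread is favoured at every age. At W1, 15 of the 18 genes higher at P1 were called higher again, against 3.4% of all genes (14 against 2.49% after rescaling). Of the 21 lower genes, 10 were called lower again at W1 against 1.6% of all genes (10 against 2.28% after rescaling), and 1 was called higher. By Eif2s3y and Xist both W1 Controls were male and both W1 Mettl3 cKO livers female, so sex and genotype cannot be told apart at that age.

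At W2, 15 of the 18 were called higher, with 27.2% of all genes (14 against 15.6% after rescaling), while 8 of the 21 were called lower, with 4.51% of all genes (8 against 14.8% after rescaling), and 3 were called higher. At W4, 12 of the 18 were called higher, with 47.6% of all genes (7 against 25.3% after rescaling), and 13 of the 21 lower, with 12.1% of all genes (16 against 25.3% after rescaling). Without any model but still on the deposited scale, both Mettl3 cKO libraries lay above both Controls for 16 of the 18 raised genes at W1 (35.5% of all genes), 17 at W2 (48.7%) and 15 at W4 (60.7%). Of the 21 lower genes, both lay below for 18 at W1 (19.5%), 8 at W2 (16.8%) and 14 at W4 (18%). On this scale the lower genes thus separated least often from Control at W2, where the background share was 16.8%. At W2, mitochondrially encoded genes took 58.1 and 59% of all FPKM in Control and 25.2 and 43.8% in Mettl3 cKO. These counts were not repeated after rescaling, and the part of the scale in them was not tested.

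Among the raised genes, 12 were called higher at all 4 ages on the deposited scale and 6 after rescaling, where 2.62% and 1.5% of all genes were called higher at W1, W2 and W4 alike. Col20a1 changed by 4.58, 3.53 and 3.83 at W1, W2 and W4, and its Control values never exceeded 4.31 FPKM while its Mettl3 cKO values ran from 17.9 to 60.9 FPKM. Kcnk16 changed by 2.25, 1.86 and 2.05, and Tgm7 by 2.78, 3.44 and 2.76 with Controls at no more than 0.039 FPKM. Fbp2 rose most at W4, from 0.114 and 0 FPKM to 16.7 and 27.0 FPKM. Zpr1, raised at W1 and W2, stood at 70.3 and 73.5 FPKM in W4 Control and 79.2 and 88.9 FPKM in W4 Mettl3 cKO (0.22, adjusted p = 0.603).

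Among the lower genes, 7 were called lower at all 4 ages and 8 after rescaling, where 0.728% and 1.24% of all genes were called lower at W1, W2 and W4 alike. Rdh16f2 went in Control from 7.33 and 12.6 FPKM at P1 to 62.2 and 53.3 FPKM at W4 and stayed between 1.12 and 3.81 FPKM in all 8 Mettl3 cKO libraries. Smim10l1 stayed between 21.2 and 32.0 FPKM in Control and between 3.49 and 11.9 FPKM in Mettl3 cKO at all ages. Pcp4l1, Hsd3b3, Amy1 and BC025446 were also called lower at each age, as was the noncoding B430119L08Rik, which overlaps Serpina1c on the other strand over 21.5% of its exon bases.

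Other genes lower at P1 were not called lower at W2 on the deposited scale, to which the following changes belong. Ass1 read 113 and 162 FPKM in W2 Control and 270 and 337 FPKM in W2 Mettl3 cKO, a call in the opposite direction (1.15, adjusted p = 0.00489), and Gm5424 did the same (1.70). Lpl read 109 and 88.1 against 87.4 and 83.3 FPKM at W1, and its changes at W1, W2 and W4 were -0.20, 0.18 and -0.01. Cyp1a2 changed by -1.67, 0.08 and -1.11, Gnmt by -0.77, 0.07 and -2.24 and Igf1 by -0.90, -0.11 and -1.84 at W1, W2 and W4. Car3 was near Control at W2 (-0.18) and at 6.67 and 9.62 FPKM against 1400 and 968 FPKM at W4 (-7.01).

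**Figure D5:**
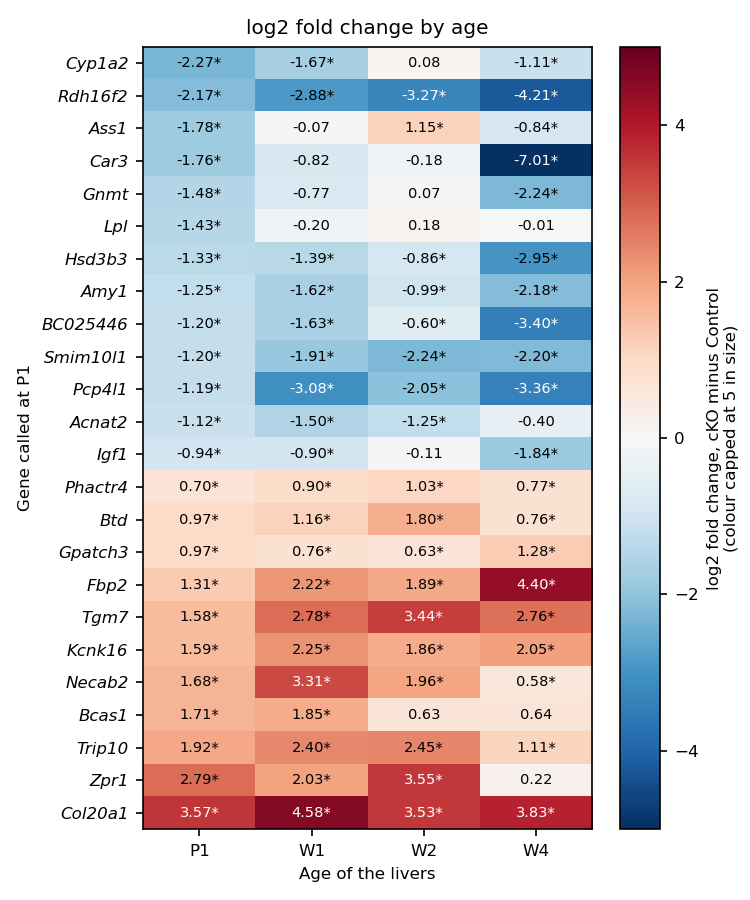
Log2 fold change of Mettl3 cKO minus Control (number and colour) for named genes called at P1 (y axis) at each age (x axis), with an asterisk where the adjusted p was under 0.05. Col20a1 is red at all ages (3.57, 4.58, 3.53 and 3.83), while Ass1 turns from -1.78 at P1 to 1.15 at W2.

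The difference between ages was tested directly, here on the deposited scale. By Eif2s3y and Xist all W2 and W4 livers were male, while 3 of the 4 P1 livers were female, so age and sex cannot be told apart in these tests. The effect of genotype at W2 differed from that at P1 in 2909 genes (22.8% of those tested) and the effect at W4 in 5977 genes (46.8%). The count at W2 came to 1349 without Mettl3 cKO replicate 1 of P1 and to 1373 without Control replicate 2 of P1. Against W1, a comparison added after the values were seen, 3 genes differed (0.0235%), namely Tpm3-rs7, Phlda3 and Gm7125. For the genes called at P1, a difference back towards 0 is favoured, since their P1 effect, by which they were chosen, is subtracted, so the following counts are a description. Among the 21 genes lower at P1, 14 had a different effect at W2, 13 of them upward (among them Cst8 and Gm7125, at 0 in all W2 and W4 libraries) and 1 downward, and 19 at W4, 10 upward and 9 downward. Among the 18 raised genes, 5 had a different effect at W2 (3 upward, 2 downward) and 9 at W4 (2 upward, 7 downward).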

How the data were processed

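Poly(A) RNA of whole liver was sequenced by the authors as 150 bp paired-end reads and, per the labels, aligned to mm10 with HISAT2, with DESeq2 for their own tests, whose results were not used. The deposited values are FPKM per gene and library as computed by the authors. For the counting tool and the annotation, the sources used here give no name. All 16 columns were matched to samples by age, genotype and replicate number.

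Autosomal genes (positions from GENCODE M21) with at least 1 FPKM in 2 of the 4 P1 libraries were kept. Log2(FPKM + 1) of all 16 libraries went into a limma fit (version 3.58.1, R 4.3.3) with 8 group coefficients and a variance trend, and the P1 contrast and its differences from W2 and W4 were adjusted over 12782 genes by the Benjamini-Hochberg method. SE is that of the limma coefficient. Labels number the 2 replicates of a group. The p-values set each change against a spread between replicates pooled over all 8 groups, with 8 residual and 4.78 prior degrees of freedom.

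Named genes were Mettl3, Hnf4a, 5 cell type markers, the up to 12 highest and 12 lowest called genes reaching a mean of 5 FPKM with non-overlapping groups (8 and 12 qualified, predicted genes left out), and, from any list described, at most 5 members by smallest p. The comparison and the 33 pathway and 14 marker lists were chosen with earlier results of these data known. Near copies were sought with blastn 2.17.0 at 85% identity or more in GENCODE M21 transcripts. Alternatives were median-of-ratios and nuclear-total scaling, 0.1 FPKM added, other filters, a replicate block, P1 alone, each P1 library left out and the study's thresholds.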

Additional observations from a re-analysis of the deposited data

Results flagged for a closer look

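Tests of the difference between ages picked out the following genes called at P1, each given as the effect at the later age minus that at P1 on the log2 scale. These genes were chosen by the P1 effect that is subtracted, which favours a difference back towards 0. The differences are on the deposited scale, and those after rescaling are not given here. Median-of-ratios factors were 0.682 and 0.709 in W2 Control against 0.982 and 0.828 in W2 Mettl3 cKO, so rescaling tends to lower the W2 effects. At W4 they were 0.871 and 0.81 against 1.312 and 1.287, with the same tendency. Acnat2, whose W4 difference is positive below, was called lower at all 4 ages after rescaling. Genes lower at P1 moved upward at W2 in the case of Ass1 (2.93, SE 0.36, adjusted p = 0.00137 by limma), Cyp1a2 (2.35), Lpl (1.62), Cst8 (1.60), Car3 (1.59), Gnmt (1.55) and Igf1 (0.83), and only Smim10l1 among the named ones moved further down (-1.05). At W4 the difference was positive for Cst8 (1.60), Lpl (1.43), Cyp1a2 (1.16), Ass1 (0.94, adjusted p = 0.0489) and Acnat2 (0.72), and negative for Car3 (-5.25, SE 0.39, adjusted p = 3.2e-06), BC025446 (-2.20), Pcp4l1 (-2.17), Rdh16f2 (-2.04), Hsd3b3 (-1.62), Smim10l1 (-1.0), Amy1 (-0.94) and Igf1 (-0.90).

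Of the genes higher at P1, Tgm7 (1.86) and Btd (0.83) were further raised at W2. At W4, Fbp2 (3.09) and Tgm7 (1.18) were further raised, and the effect was smaller for Zpr1 (-2.57, SE 0.48, adjusted p = 0.000978), Necab2 (-1.10), Bcas1 (-1.06) and Arhgap33os (-0.86). Cst8, a cystatin gene, was listed at 0 in all libraries of W2 and W4, so its differences restate the P1 change.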

How the results depend on the processing

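Of the 39 genes called at P1 (18 higher, 21 lower), rescaling by nuclear FPKM gave 40 higher, 0.1 FPKM in place of 1 gave 21 calls with 7 higher, and a filter at 5 FPKM in 2 libraries gave 10 higher. That filter also lowered the P1 calls repeated at W2 from 23 to 15 and the genes whose effect differed at W4 from 5977 to 3768, with fewer genes tested. The study's thresholds gave 197 genes (83 higher, 114 lower) without adjustment. The P1 libraries alone gave 1 call (0 higher, 1 lower), and 3 after median-of-ratios rescaling (1 higher, 2 lower).

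Leaving out 1 P1 library gave 3 to 24 calls (1 to 14 higher, 1 to 10 lower), with the lowest count without Mettl3 cKO replicate 1, and 1349 to 2824 genes differing at W2. With median-of-ratios rescaling as well, a combination chosen after seeing the data, the ranges were 4 to 17 calls (2 to 8 higher, 1 to 9 lower), 555, 1005, 1391 and 2924 genes differing at W2 (without Mettl3 cKO replicate 1, Control replicates 2 and 1, and Mettl3 cKO replicate 2), and 3542 to 4433 at W4, among them 3758 without Mettl3 cKO replicate 1 and 3975 without Control replicate 1. The count of P1 calls repeated at a later age always took the 39 genes of the main fit. It therefore does not follow which genes an alternative called at P1. At W1 and W4 it stayed within 1.5 times the main counts of 25 and 25 under every alternative that fitted the later ages.

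With the replicate number as a block, 18 genes were called (9 higher, 9 lower), 17 of them among the 39. The numbers were not taken to pair the livers, since the deviations of same-numbered P1 libraries correlated at 0.01.

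None of the 21 named genes called at P1 changed direction under any alternative. Only rescaling could have changed it, since both Mettl3 cKO libraries of these genes lay on the same side of both Controls. Named genes near 0 did change direction. With nuclear scaling Hnf4a came to 0.04, Hba-a1 to 0.11, Adgre1 to 0.07, Pecam1 to 0.09 and Jund to 0.00. With 1 library left out, Hba-a1 ran from -0.28 to 0.12, Adgre1 from -0.23 to 0.11, Pecam1 from -0.28 to 0.12, Nlrc5 from -0.09 to 0.75, Psmb9 from -0.15 to 0.71 and Klf6 from -0.02 to 0.38. The cause of these shifts was not tested. With 2 livers a group, the smallest change called was 0.70 on the log2 scale, and FPKM values under 1 rest on few fragments.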
